A study of Mus musculus with 6 samples.

Results

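Killer lectin-like receptors are membrane proteins that NK cells, and some T cells, use to read other cells. Members of the Klr families either restrain the cell, through inhibitory motifs in their own tails, or activate it through partner adaptors such as DAP10 and DAP12, and several recognize MHC class I or related molecules. Ncr1 encodes NKp46, an activating receptor of another protein family that is widely used to mark mouse NK cells. In a graft, the same receptors can meet donor MHC that differs from that of the recipient.

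The 10 genes described here were listed by symbol, and all 10 were found among the 31053 genes listed for the transplanted kidneys. They are Klrb1c, which encodes NK1.1, Klrc1, which encodes the inhibitory receptor NKG2A, Klrd1, which encodes its partner CD94, Klre1, Klri2, Klrk1, which encodes the activating receptor NKG2D, Klrg1, Klra7, Klra8, and Ncr1. The matrices list 17 other Klr genes.

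Single cells were sequenced from 2 naive, 2 rejecting, and 2 tolerized mouse kidneys, with 1 library per kidney. The labels give all 6 as male, while the study's methods allow for BALB/c donors of either sex. Naive kidneys were untransplanted, from wild-type C57BL/6 (B6) mice of 10 to 12 weeks. Rejecting kidneys were BALB/c grafts placed in B6 males from which both own kidneys had been removed, and tolerized kidneys were the same grafts in recipients that also received ECDI-SP, which are BALB/c splenocytes treated with ethylenecarbodiimide, infused 7 days before and 1 day after transplantation. Transplanted kidneys were taken on day 15, and the age given for them is 6 to 7 weeks. A graft therefore holds both BALB/c cells and infiltrating B6 cells, which the counts do not separate, and reads of both strains were counted against the B6 reference. The study ran its kidneys in 2 experiments, but which kidney belonged to which is not given in the sources used here, so the fits hold no term for it, and tests measure the spread between 2 kidneys a group.

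A UMI (unique molecular identifier) marks 1 captured RNA molecule. The deposited matrices held 8532 to 13378 barcodes per kidney, of which 5608 to 10483 cells were used. The median UMIs per used cell were 2535 and 3566 in the rejecting grafts and 6136 and 7292 in the tolerized grafts, so that depth moved with the group. At most 52 barcodes of used cells were shared by any pair of libraries. Cells were clustered without the Klr genes and Ncr1. A single cluster carried the NK markers, and its cells with an Nkg7 UMI and none of Cd3e, Cd4, or Cd8a are called NK-like. Cells of 5 T-like clusters with a Cd3e UMI are called CD8 or CD4 when they had UMIs of only Cd8a or only Cd4, and Nkg7-positive when they had a UMI of Nkg7, a cytotoxic granule gene. One T-like cluster had a median of only 878 UMIs, and 1739 of its 1922 cells came from rejecting kidney 1.

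By these gates there were 114 and 109 NK-like cells in the rejecting grafts, 110 and 116 in the tolerized grafts, and 7 and 12 in the naive kidneys. The rejecting grafts held 1153 and 1384 Nkg7-positive CD8 cells and the tolerized grafts 971 and 356, and CD4 cells 166 and 203 against 239 and 150. All 16 genes of the NK marker list had UMIs in the NK-like cells. The same list, which holds Nkg7 of the gate, served to name the cluster, so this is no separate check of identity. Of the 12 T cell markers, Cd3e, Cd4, and Cd8a were at 0 there by the gate, while Trbc1 was at 388 to 462 counts-per-million units (CPM, the UMIs of a gene scaled to all UMIs of a class in 1 kidney), and Cd3g was at 179 CPM in rejecting kidney 1 but at 7.49 to 34.9 in the other grafts. Macrophage markers summed to 1403 CPM in the NK-like cells of rejecting kidney 1 and to 341, 152, and 59.4 in rejecting kidney 2 and tolerized kidneys 1 and 2. Of the 9 markers of group 2 and 3 innate lymphoid cells, 7 were at 0, but Gata3 was at 58.5 and 63.9 normalized CPM in the rejecting grafts and 39.9 and 55.9 in the tolerized grafts. Trdc, a gamma-delta T cell marker, had a UMI in 10.5% and 17.4% of NK-like cells of the rejecting grafts and in 23.6% and 12.9% of those of the tolerized grafts. Whether type 1 innate lymphoid cells lay among the NK-like cells was not tested.

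NK-like cells made up 5.96% (114 of 1914) and 5.12% (109 of 2129) of NK-like and T cells with a Cd3e UMI in the rejecting grafts, and 6.75% (110 of 1630) and 13.3% (116 of 870) in the tolerized grafts. The 95% Clopper-Pearson intervals were 4.94% to 7.11%, 4.22% to 6.14%, 5.58% to 8.08%, and 11.1% to 15.8%, which cover counting error only. The groups did not overlap, but the exact two-sided permutation test gave p = 0.3333, the smallest that 2 against 2 kidneys allows, and the difference of 4.50 percentage points was 1.21 without tolerized kidney 2. As a share of all used cells, NK-like cells overlapped between the groups at 1.09% and 1.45% against 1.23% and 1.81%. The first shares leave out cells of the T-like clusters without a Cd3e UMI. Those numbered 1634 and 556 in the rejecting grafts and 161 and 158 in the tolerized grafts. Their median depths were 939.5 and 2030 against 2941 and 3064 UMIs. The first shares therefore describe only T cells in which Cd3e was detected.

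In GRCm38, 9 of the 10 genes lie on chromosome 6 within 7.96 Mb, and Ncr1 lies on chromosome 7 from 4337724 to 4345164 on the plus strand. Klre1 (chromosome 6, 129577905 to 129585827) and Klrd1 (129591782 to 129598775) are plus-strand neighbors, and Klri2 (129729041 to 129740484), Klra8 (130115226 to 130129898), and Klra7 (130218605 to 130233322) follow on the minus strand. All 10 are annotated as protein coding. RefSeq's GRCm38.p6 promoter table, with 250 bases before and 50 after each start, held 11 entries for 7 of the 10 genes. The promoters of Ncr1, a defining NK cell gene, Klre1, for which the comparison of the grafts came out differently in CD8 and NK-like cells, and Klra8, the member with the largest share of its UMIs in NK-like cells, are shown for the letters TGTGGT, the core of the motif bound by RUNX factors, searched on both strands (ACCACA on the other). Capitals mark matches.

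Ncr1, chr7:4337465-4337764, plus strand: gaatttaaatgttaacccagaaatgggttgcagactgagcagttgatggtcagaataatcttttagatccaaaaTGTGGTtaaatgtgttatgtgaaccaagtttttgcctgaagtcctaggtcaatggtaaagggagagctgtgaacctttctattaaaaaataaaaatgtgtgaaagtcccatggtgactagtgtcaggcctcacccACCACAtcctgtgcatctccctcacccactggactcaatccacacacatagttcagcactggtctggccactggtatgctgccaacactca
Klre1, chr6:129577963-129578262, plus strand: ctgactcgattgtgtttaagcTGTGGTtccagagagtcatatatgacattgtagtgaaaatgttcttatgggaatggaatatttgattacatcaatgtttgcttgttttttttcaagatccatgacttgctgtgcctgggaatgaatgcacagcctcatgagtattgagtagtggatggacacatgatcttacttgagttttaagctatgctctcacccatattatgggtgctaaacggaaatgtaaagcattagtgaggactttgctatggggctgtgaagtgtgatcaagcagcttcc
Klra8, chr6:130129849-130130148, minus strand: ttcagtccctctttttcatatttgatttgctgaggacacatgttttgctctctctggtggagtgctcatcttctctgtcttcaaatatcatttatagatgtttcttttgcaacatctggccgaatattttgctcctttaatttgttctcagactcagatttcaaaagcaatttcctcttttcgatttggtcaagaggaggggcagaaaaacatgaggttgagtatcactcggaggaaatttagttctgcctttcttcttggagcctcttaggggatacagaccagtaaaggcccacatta

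Entries of 1 gene can overlap, and both entries of Ncr1 hold the same 2 matches. The other entry of Klre1, from 129578036 to 129578335, holds no match. By gene, with a match in any entry counted, the letters occur in 5 of the 7 members, and in 18.9% of all 27025 genes in the table. By entry, they occur in 6 of 11 and in 16.8% of all 32851. Klra8 holds none in this window. TCACACC, a T-box motif, was in 0 of the 11 entries and in 3.98% of all promoters, and GGAAGT, an ETS motif, was in 1 entry and in 23.8% of all. These are matches of letters, and no binding was measured.

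The members divided by where their UMIs lay. Over the 4 grafts, 85.7% of the 1116 UMIs of Klra8 (Ly49H, an activating receptor carried by B6 mice) and 79.3% of the 1482 UMIs of Ncr1 were in NK-like cells. For Klrb1c the share was 66.9% of 1247 UMIs, and for Klra7 (Ly49G, an inhibitory receptor for MHC class I) 59.96% of 989. Klre1 and Klri2, whose products can pair with each other, had 43.3% of 2742 and 43.0% of 670 UMIs in NK-like cells. In T-like cells with a Cd3e UMI their shares were 44.1% and 33.3%. The other members had smaller shares in NK-like cells. Klrc1 had 6.15% of its 4697 UMIs in NK-like cells and 78.6% in T-like cells with a Cd3e UMI, Klrd1 10.4% of 11099 and 64.0%, and Klrg1 19.0% of 689 and 63.3%. Klrk1 had 12.9% of its 11643 UMIs in NK-like cells, 32.1% in T-like cells with a Cd3e UMI, and 46.9% outside the NK-like and T-like clusters. These shares depend on how many cells of each kind were captured.

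**Figure D1:**
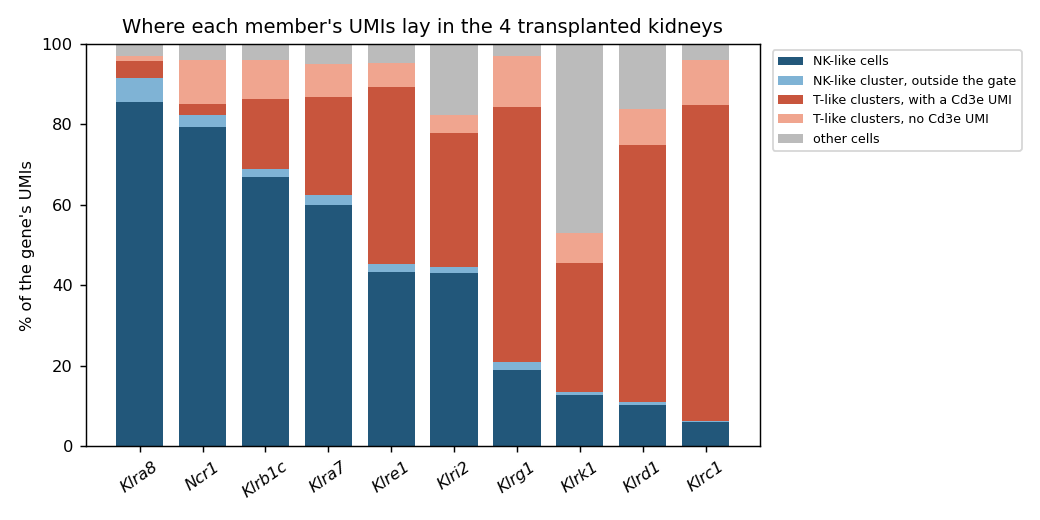
Stacked bars give, for each gene, the percentage of its UMIs in the 4 transplanted kidneys that lay in NK-like cells, in the rest of that cluster, in T-like clusters with or without a Cd3e UMI, and in other cells. Klra8 stands at 85.7% in NK-like cells at the left and Klrc1 at 6.15% at the right.

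Levels below are CPM of a class in 1 kidney. A UMI counts 1 end of a molecule, and no correction for gene length was made. In NK-like cells the medians over the 4 grafts ran from 1110 for Klrk1, 876 for Klrd1, 871 for Ncr1, and 848 for Klre1 through 745 for Klra8, 646 for Klrb1c, and 457 for Klra7 to 212 for Klrc1, 210 for Klri2, and 98.4 for Klrg1. Klrk1 stood above the rest. The ranges over the 4 grafts overlapped between neighbors from Klrd1 through Klra7 and between Klrc1 and Klri2. Within each graft, however, Klra8 was above Klrb1c and Klrb1c above Klra7. The order among Klrd1, Ncr1, Klre1, and Klra8, and that of Klrc1 and Klri2, changed between grafts and was not resolved. Klrg1, an inhibitory receptor for cadherins, stayed below all the others in each of the 4 grafts.

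In proximal tubule-like cells, which should lack these receptors, the highest level of any member in a graft was 4.74 CPM, for Klrd1 in rejecting kidney 1, and in the other 3 grafts none exceeded 0.85. Levels of this size in other classes are read here as background. B cell-like cells of rejecting kidney 1 held more, at 17.9 CPM for Klrd1, 12.3 for Klrc1, and 7.82 for Klrk1. In B cell-like cells of the other 3 grafts no member exceeded 2.78. In rejecting kidney 1, levels up to those of B cell-like cells are therefore not set apart from background. CD4 cells held no Ncr1 and no Klra7 UMI in any graft.

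**Figure D2:**
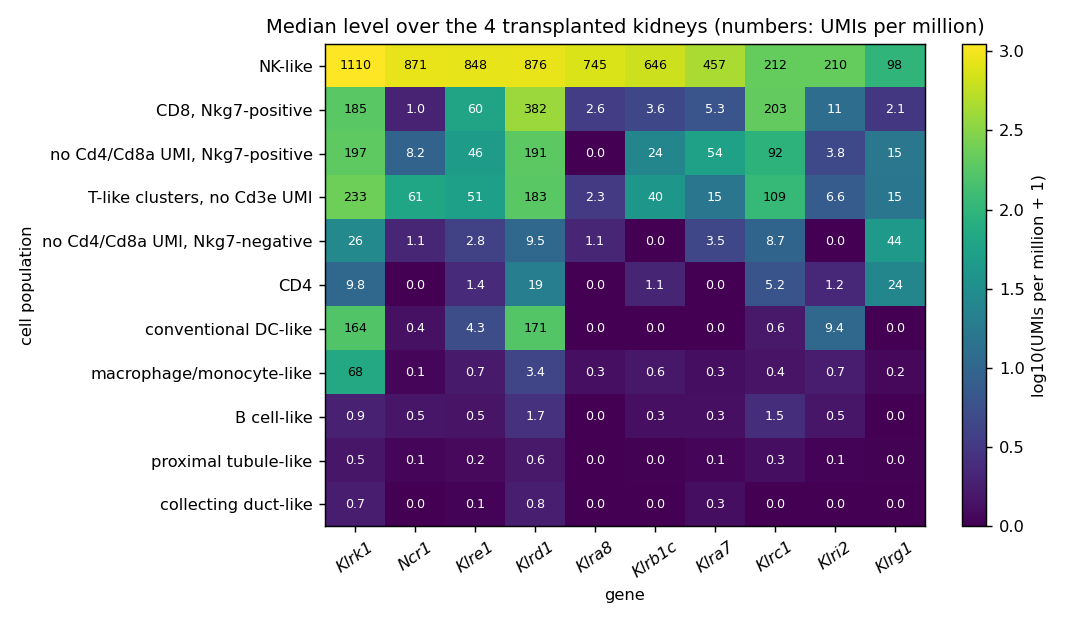
The colored grid gives the median over the 4 transplanted kidneys of each gene's CPM, with cell populations as rows, genes as columns, and color on a log10 scale. Klrk1 and Klrd1 stand at 164 and 171 in conventional DC-like cells, where Klra8 and Klrb1c stand at 0.0.

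Klrk1 was found in myeloid cells as well as lymphocytes. In conventional DC-like cells it was at 156 and 290 CPM in the rejecting grafts and at 164 and 164 in the tolerized grafts, and 50.4% to 62.4% of these cells had a UMI. In macrophage/monocyte-like cells it was at 69.7 and 87.3 in the rejecting grafts and at 57.8 and 65.7 in the tolerized grafts. Both levels were far above the 0.22 to 3.04 of the proximal tubule-like cells. In naive kidneys, macrophage/monocyte-like cells held 1 and 2 Klrk1 UMIs in 81 and 149 cells, or 4.70 and 4.44 CPM, where 3 counts would be 14.1 and 6.66. Naive and transplanted kidneys also differ in strain, age, and gene list, which cannot be told apart from transplantation.

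Klrd1 shared the DC pattern but not the macrophage one. It was at 132 and 211 CPM in the conventional DC-like cells of the rejecting grafts and at 131 and 215 in those of the tolerized grafts, and at only 2.30 to 7.50 in macrophage/monocyte-like cells. Its partner Klrc1 did not follow it there, at 0 to 3.84 in conventional DC-like cells, while Klri2 was at 3.93 to 11.9. Klra8 and Klrb1c had no UMI in the 689 conventional DC-like cells of the 4 grafts, which allows a share of cells with a UMI of up to 0.435%.

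In NK-like cells, no member passed the test between tolerized and rejecting kidneys. Of all 4367 genes tested, 1 (0.0229%) was called, in edgeR's quasi-likelihood test at a Benjamini-Hochberg false discovery rate (FDR) of 0.05 over all genes tested, and 272 had an unadjusted p under 0.05. The median log2 fold change of the 10 members was 0.15, against 0.01 over all genes tested. The levels of 4 members were higher in both tolerized kidneys than in both rejecting kidneys and those of 2 were lower, where 18% and 18.8% of all genes tested were higher and lower without overlap, and 36.8% either way. These counts use levels scaled by TMM factors, by which Klrd1, Klre1, Klrg1, and Klrk1 were the 4 and Klra7 and Klra8 the 2.

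The inhibitory receptor gene Klra7 differed most among the members. It was at 546 and 647 CPM in the rejecting grafts and at 332 and 368 in the tolerized grafts, with a log2 fold change of -0.65 ± 0.28 (SE, n = 2 per group, FDR = 0.785, edgeR). The groups did not overlap. At 1000 UMIs a cell, 31.6% and 39.4% of NK-like cells of the rejecting grafts and 28.3% and 26.1% of those of the tolerized grafts had a Klra7 UMI, again without overlap (exact permutation test, p = 0.3333). In the Klra7 transcript, 9.76% of 91-base windows in the last 500 bases also occur in the pseudogene Klra13-ps, so that some reads could be shared. Which end of the RNA was read is not given in the sources used here, and such windows cover only reads from the last bases.

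Klra8 was at 791 and 922 CPM in the rejecting grafts and at 699 and 560 in the tolerized grafts, with a log2 fold change of -0.34 ± 0.27 (FDR = 0.873, edgeR). Klrb1c was at 724 and 655 against 637 and 531, with a log2 fold change of -0.13 ± 0.27 (FDR = 0.955, edgeR). Both were lower in raw levels in each tolerized kidney. No 91-base window of either gene's last 500 bases occurs in another gene's transcripts, which again covers only reads from that end.

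The activating receptor genes Klrk1 and Ncr1 overlapped between the groups in CPM. Klrk1 was at 1046 and 1112 in the rejecting grafts and at 1108 and 1119 in the tolerized grafts, and its log2 fold change was 0.16 ± 0.26. Ncr1 was at 949 and 760 against 829 and 913, with a log2 fold change of 0.15 ± 0.28. For both, 2 standard errors around the log2 fold change stay within a 2-fold change.

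Klrd1 was at 612 and 853 CPM in the rejecting grafts and at 899 and 903 in the tolerized grafts, and Klrc1 at 224 and 178 against 200 and 236. Klre1 was at 786 and 829 against 866 and 935, and Klri2, for which the rejecting kidneys spanned the tolerized ones, at 158 and 264 against 217 and 202. Klrg1 was at 96.9 and 81.4 against 99.9 and 101. The log2 fold changes of these 5 lay between 0.09 and 0.41, with standard errors of 0.27 to 0.32. For Klrc1, 31.9% of the 91-base windows in the last 500 bases also occur in Klrc2, and the split of reads between this pair is uncertain.

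**Figure D3:**
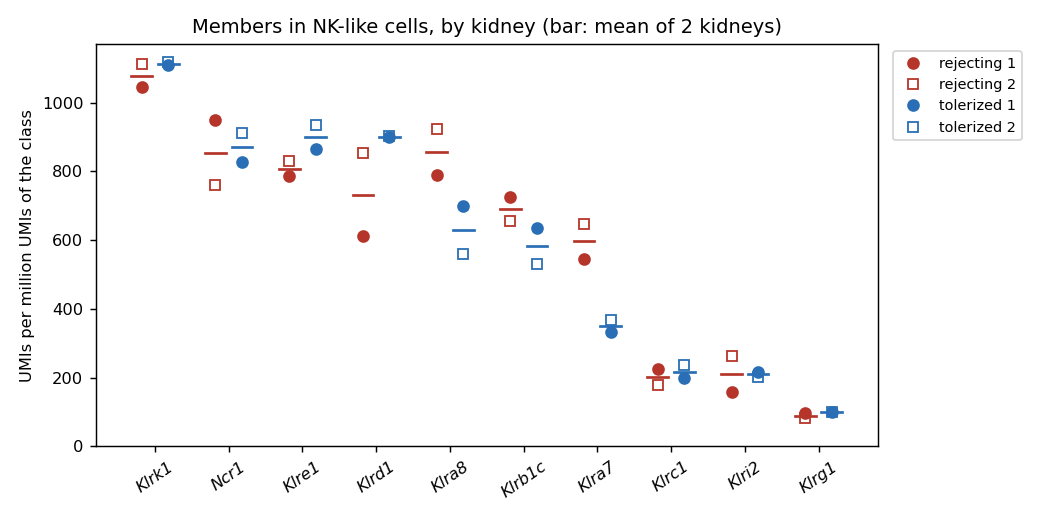
Points give each gene's CPM in the NK-like cells of each rejecting (red) and tolerized (blue) kidney, with filled circles for replicate 1, open squares for replicate 2, and bars for the mean. The groups stand apart for Klra7, at 546 and 647 against 332 and 368, and overlap in CPM for Klrk1 and Klrc1.

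Single NK-like cells carried several members at once. At 1000 UMIs a cell, the mean number of the 10 members with a UMI was 3.91 and 4.13 in the rejecting grafts and 4.07 and 4.10 in the tolerized grafts (mean 4.02 ± 0.15 and 4.08 ± 0.02, SD, n = 2 each). The groups overlapped (exact permutation test, p = 1.0). This left out 38, 5, 4, and 1 shallower cells, and without thinning the means were 4.82 and 5.93 against 6.54 and 6.72. Klra7 and Klra8, which can be expressed on separate subsets of NK cells, had UMIs together in 24.6% and 38.5% of NK-like cells of the rejecting grafts and in 32.7% and 37.1% of those of the tolerized grafts before thinning. At 1000 UMIs a cell, Klra8 had a UMI in 50%, 39.0%, 46.7%, and 63.3% of cells with a Klra7 UMI in rejecting kidneys 1 and 2 and tolerized kidneys 1 and 2, and in 48.1%, 49.2%, 44.7%, and 34.1% of the others. The direction differed among the grafts.

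The 7 and 12 NK-like cells of the naive kidneys also carried the receptors, at 1575 and 856 CPM for Klrk1 and 900 and 448 for Ncr1. Klra7 had no UMI in naive kidney 1, where 3 counts would be 225 CPM, and was at 448 in naive kidney 2. With so few cells no comparison with the grafts was made.

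CD8 cells with Nkg7 carried a narrower set. Klrd1 was the highest member there, at 308 and 333 CPM in the rejecting grafts and 431 and 461 in the tolerized grafts, followed by Klrc1 at 193 and 212 against 193 and 213 and Klrk1 at 141 and 197 against 201 and 172. The defining NK genes were near 0, with Ncr1 at 0.80 and 1.20 against 0.35 and 1.60 and Klra8 at 2.41 and 2.80 against 0.18 and 7.60. Klrg1 was at 0.80 to 3.01. The sum of the NK marker list was 5008 and 4734 CPM in the rejecting grafts and 5356 and 5455 in the tolerized grafts.

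Between tolerized and rejecting kidneys, none of the 9 members tested in these CD8 cells passed the FDR, and none of all 10397 genes did (0% called), although 902 had an unadjusted p under 0.05 and DESeq2 called 43. The median log2 fold change was 0.44 over the 9 members and 0.01 over all genes. Without overlap, 4 members were higher in the tolerized grafts and 0 lower, where 20.3% of all genes tested were higher, 20.4% lower, and 40.7% either. Those 4 were Klre1, Klri2, Klrd1, and Klrb1c, by levels scaled with TMM factors. At 1000 UMIs a cell, the mean number of members with a UMI was 0.585 and 0.627 in the rejecting grafts and 0.761 and 0.723 in the tolerized grafts (exact permutation test, p = 0.3333, the smallest possible).

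Klri2, which encodes the activating partner of KLRE1, was at 2.68 and 4.795 CPM in the rejecting grafts and at 17.5 and 28.8 in the tolerized grafts, from 10, 24, 99, and 72 UMIs. Its rejecting levels were of the size read above as background. Klri2 itself reached at most 0.30 CPM in proximal tubule-like cells and 2.23 in B cell-like cells of the grafts. Its log2 fold change was 2.70 ± 0.39 (FDR = 0.192, edgeR; FDR = 0.000446, DESeq2). Klre1 was at 18.8 and 41.0 against 103 and 78.4, with a log2 fold change of 1.73 ± 0.34 (FDR = 0.203, edgeR; FDR = 0.00265, DESeq2). Both genes stood apart between the groups, and edgeR's call without a filter on low counts also passed for both. With the replicate number as a block, edgeR gave 2.77 (FDR = 0.00884) for Klri2 and 1.81 (FDR = 0.0737) for Klre1. Passing in these settings was not particular to the 2 genes. In this class 0 genes were called in the main fit, 43 by DESeq2, 305 without the filter, and 18 with the block. A block with the replicate numbers crossed called 84. The inhibitory partner gene Klri1 had 6 UMIs in the NK-like cells of the 4 grafts, where Klri2 had 288.

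The share of cells with a UMI was also higher in both tolerized grafts when each cell was thinned to equal depth. The gates themselves used all UMIs of a cell. Thinning left out 145 and 13 shallower cells of the rejecting grafts and 1 and 2 of the tolerized grafts. At 1000 UMIs a cell, 1.98% and 2.92% of Nkg7-positive CD8 cells of the rejecting grafts and 7.53% and 5.37% of those of the tolerized grafts had a Klre1 UMI, with 95% Clopper-Pearson intervals of 1.22% to 3.05%, 2.09% to 3.95%, 5.95% to 9.37%, and 3.26% to 8.25%. For Klri2 the shares were 0.198% and 0.365% against 1.44% and 1.13%, from only 2, 5, 14, and 4 cells. Its intervals were 0.024% to 0.71%, 0.12% to 0.85%, 0.79% to 2.41%, and 0.31% to 2.87%. Between the groups, only the intervals of rejecting kidney 2 and tolerized kidney 2 overlapped for Klre1. For Klri2 only those of rejecting kidney 1 and tolerized kidney 1 stood apart. In proximal tubule-like cells at most 0.0534% of cells had either gene's UMI at that depth. Before thinning, the Klre1 shares were 3.99% and 7.88% against 24.1% and 17.1%, at median depths of 2564 and 3046 against 5011 and 5967 UMIs a cell.

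Levels were also taken by cluster, and whether the clusters differed in this comparison was not tested. Most Nkg7-positive CD8 cells, from 265 to 1195 a kidney, lay in 1 T-like cluster, and there Klre1 was at 19.2 and 42.3 CPM in the rejecting grafts and 118 and 106 in the tolerized grafts. Klri2 was at 2.56 and 4.31 against 18.3 and 33.3. In a smaller T-like cluster, with 70 to 147 such cells a kidney, the groups overlapped for both genes, with Klre1 at 8.77 and 21.8 against 50.9 and 13.6 and Klri2 at 0 and 10.9 against 19.1 and 9.71. In a cluster led by cell cycle genes, in which 80.3% to 96.8% of such cells had a UMI of the proliferation gene Mki67, Klre1 was at 25.2 and 61.3 against 46.0 in tolerized kidney 1, the only tolerized graft with at least 20 such cells. Without the cluster of low UMI counts, an alternative chosen after the data were seen, the log2 fold changes were 1.72 for Klre1 and 2.63 for Klri2.

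CD8 cells with a Klre1 UMI had more Klrd1, at 477 and 696 CPM in the rejecting grafts and 724 and 968 in the tolerized grafts, than those without, at 297 and 289 against 321 and 327. They also had more Klrk1, at 307 and 392 against 306 and 332, than cells without, at 130 and 174 against 161 and 130. Ncr1 was at 0 to 5.73 in the cells with a Klre1 UMI. These cells were deeper than the rest in each graft, and because they were chosen by a UMI of a member, the values are given without a test.

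Klrd1 also stood apart between the groups, with a log2 fold change of 0.62 ± 0.21 (FDR = 0.456, edgeR). At 1000 UMIs a cell, 24.4% and 25.1% of cells of the rejecting grafts and 31.2% and 35.03% of those of the tolerized grafts had a Klrd1 UMI. Klrb1c was at 2.68 and 3.60 against 14.9 and 3.60, with a log2 fold change of 1.77 ± 0.57 (FDR = 0.415, edgeR). It rested on tolerized kidney 1, without which the log2 fold change was 0.32 ± 0.93. The Klrb1c levels of the other grafts were of the size read above as background. Klrb1c itself reached at most 0.15 CPM in proximal tubule-like cells and 0.93 in B cell-like cells of the grafts. Klrc1 and Klrk1 had log2 fold changes of 0.14 ± 0.21 and 0.28 ± 0.23, and their summed levels overlapped between the groups. Klrc1, however, had at 1000 UMIs a cell a UMI in 18.6% and 17.4% of cells of the rejecting grafts and in 16.2% and 14.97% of those of the tolerized grafts, lower in both tolerized grafts and thus opposite in sign to its fold change (exact permutation test, p = 0.3333). For Klrk1 these shares overlapped, at 12.0% and 15.9% against 17.4% and 14.7%.

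**Figure D4:**
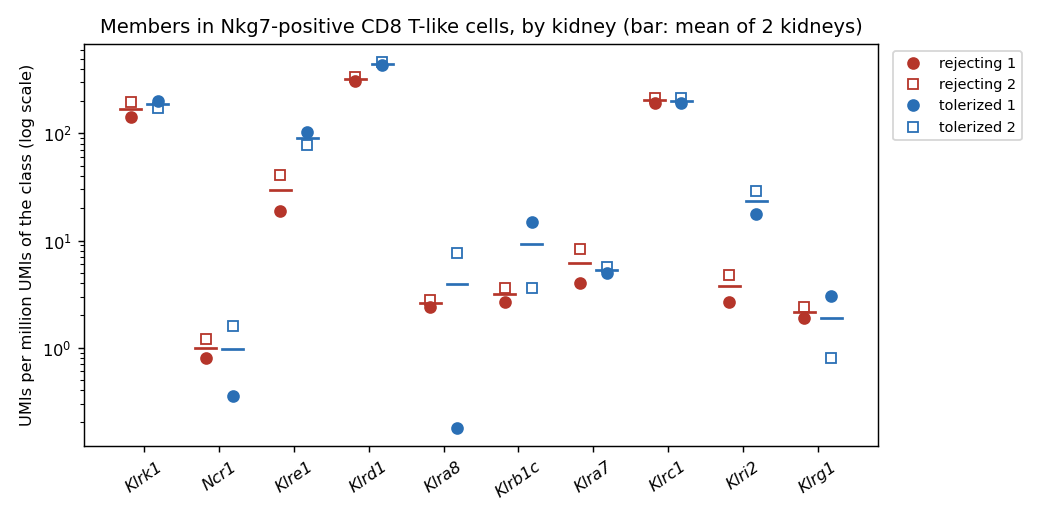
Points give each gene's CPM, on a log scale, in the Nkg7-positive CD8 cells of each rejecting (red) and tolerized (blue) kidney, with filled circles for replicate 1, open squares for replicate 2, and bars for the mean. Klre1 and Klri2 are higher in both tolerized kidneys, at 103 and 78.4 and at 17.5 and 28.8, while the summed levels of Klrc1 overlap.

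Whether the difference between the grafts was itself different in NK-like and Nkg7-positive CD8 cells was tested with an interaction term in edgeR, with the kidney as a term. Of 9310 genes, 11 (0.118%) were called, 0.0215% with a higher and 0.0967% with a lower difference in NK-like cells. Of the members, 3 were called, all lower. The difference of the log2 fold changes, NK-like minus CD8, was -2.58 ± 0.35 for Klri2 (FDR = 5.36e-10), -1.47 ± 0.22 for Klre1 (FDR = 4.08e-08), and -1.90 ± 0.35 for Klrb1c (FDR = 4.86e-05). For each of these genes the tolerized kidneys were higher relative to the rejecting kidneys in CD8 cells than in NK-like cells. With 2 kidneys a group, FDRs this small overstate how well the spread between kidneys is known. The standard error of Klre1 here, 0.22, was below those of the fits of 1 class, at 0.27 in NK-like and 0.34 in CD8 cells. DESeq2 called 2 genes in all, among them Klri2 (FDR = 0.00268), and gave FDR = 0.138 for Klre1 and 1.0 for Klrb1c. Without tolerized kidney 1 the difference was -1.15 (FDR = 0.0817) for Klre1 and -0.48 (FDR = 1.0) for Klrb1c, and without rejecting kidney 2 it was -2.21 (FDR = 0.109) for Klrb1c. The other 7 members were not called, with differences from -0.53 to 0.45.

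The granzyme gene Gzma and the adaptor gene Fcer1g, both on lists chosen for this description, were among the other genes called in that test, with differences of -2.21 ± 0.20 (FDR = 9.01e-25) and -1.22 ± 0.19 (FDR = 3e-07). The limit of 2 kidneys a group holds for these FDRs too, and the standard error of Gzma was again below the 0.25 of either class alone. Cd3g and Cd8b1, genes tied to the gates, were called too. In Nkg7-positive CD8 cells Gzma was at 114 and 167 normalized CPM in the rejecting grafts and 569 and 614 in the tolerized grafts. The FDR was 0.0776 in edgeR for that class alone. Fcer1g was at 283 and 180 against 604 and 540, with FDR = 0.203. The Gzma levels rested on a minority of these cells. Of those without a Klre1 UMI, 8.58% and 3.45% in the rejecting grafts had a Gzma UMI, against 5.97% and 7.80% in the tolerized grafts. The groups overlapped in this share, and also in cells with a Klre1 UMI. The Gzma shares were not taken at equal depth. Macrophage markers, whose cells also express Fcer1g, summed to 676 and 182 CPM against 120 and 68.0 in these CD8 cells.

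**Figure D5:**
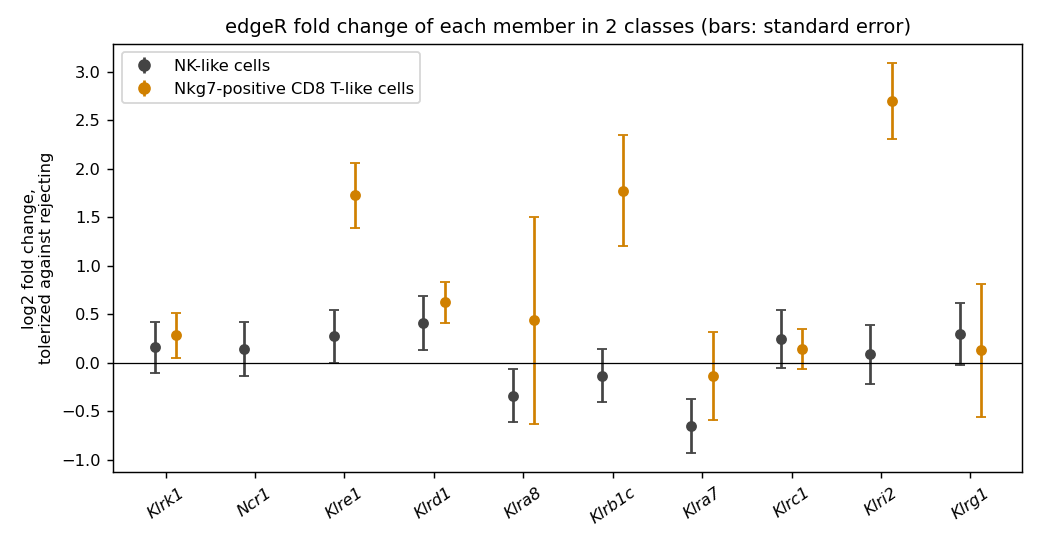
Points give the log2 fold change of tolerized against rejecting kidneys for each gene in NK-like cells (grey) and Nkg7-positive CD8 cells (orange), with bars for the standard error of edgeR's fit of 2 kidneys a group, and with no CD8 value for Ncr1, which did not pass the filter there. In CD8 cells Klri2 stands at 2.70 and Klre1 at 1.73, against 0.09 and 0.27 in NK-like cells.

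Only 43 and 11 CD8 cells of the rejecting grafts and 14 and 4 of the tolerized grafts lacked an Nkg7 UMI. No member passed the filter on low counts there, and among 415 genes 3 (0.723%) were called, one of them Ccl5, a chemokine gene of cytotoxic cells. Groups did not overlap for 19% of these genes upward, 20.5% downward, and 39.5% in all, and with 0 members tested none is counted. Klra7, Klra8, Klri2, and Ncr1 had no UMI in these cells.

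In CD4 cells Klrg1 had the highest level of the members only in some kidneys, at 19.4 and 28.0 CPM in the rejecting grafts and 89.4 and 8.76 in the tolerized grafts. Its log2 fold change of 1.25 ± 0.65 (FDR = 0.680, edgeR) rested on tolerized kidney 1 and was -1.20 without it. Klrd1 was at 14.6 and 43.4 against 20.7 and 17.5, and Klrk1 at 4.86 and 16.8 against 14.8 and 1.10, both overlapping. In rejecting kidney 1, B cell-like cells held higher levels of both, at 17.9 CPM for Klrd1 and 7.82 for Klrk1. These 3 members were tested, none was called, and 10 of 7122 genes (0.14%) were, 0.126% higher and 0.014% lower. Without overlap, 0 of the 3 were higher and 0 lower, against 18.6% and 18.8% of all genes tested, or 37.4% either way.

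In 3 of the 4 grafts, Klrg1 was found more often in CD4 cells with a UMI of Foxp3, the transcription factor gene of regulatory T cells, a split chosen after the values were seen. It had a UMI in 4 of 33 and 8 of 31 such cells of the rejecting grafts and in 32 of 84 and 1 of 36 of the tolerized grafts. Over the 4 grafts this was 45 of 184 cells with a Foxp3 UMI and 15 of 574 cells without. In tolerized kidney 2 the shares were 2.78% with and 3.51% without a Foxp3 UMI.

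Cells of the T-like clusters with a Cd3e UMI and neither Cd4 nor Cd8a UMI, when Nkg7-positive, carried Klra7 at 8.77 and 58.8 CPM in the rejecting grafts and 50.1 and 85.5 in the tolerized grafts. In each graft this was above the level in Nkg7-positive CD8 cells, at 4.02 to 8.39. Klra8 was at 0 to 1.46 in the same cells. In T-like clusters, cells without a Cd3e UMI carried Ncr1 at 12.8 and 6.12 in the rejecting grafts and 110 and 138 in the tolerized grafts. That class held 1634 and 556 cells in the rejecting grafts and 161 and 158 in the tolerized grafts, at median depths of 939.5 and 2030 against 2941 and 3064 UMIs. The part of depth in this difference was not tested.

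Of the genes that work with these receptors, 14 adaptors and signaling genes, 14 transcription factors, and 14 effector molecules were listed. In NK-like cells 14, 13, and 11 of them were tested and 0 were called, with lowest FDRs of 0.587, 0.596, and 0.823 in edgeR. In Nkg7-positive CD8 cells 12, 13, and 14 were tested and 0 were called. In CD4 cells 11, 13, and 11 were tested and 0 were called, and Tbx21, which encodes T-bet, had the lowest FDR, at 0.103, with 79.5 and 76.0 normalized CPM in the rejecting grafts and 36.7 and 18.7 in the tolerized grafts.

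Of 17 genes for ligands or candidate ligands, 5 were tested in NK-like cells, 7 in Nkg7-positive CD8 cells, and 5 in CD4 cells, and 0 were called. H2-T23, which encodes the Qa-1 molecule that CD94 and NKG2A bind, was at 411 and 1318 CPM in endothelium-like cells of the rejecting grafts and at 411 and 783 in those of the tolerized grafts. In each of the 12 populations measured it was higher in replicate 2 than in replicate 1 of both groups, among them proximal tubule-like cells, at 161 and 516 against 181 and 250. H2-D1, which encodes a ligand of Klra7, was at 6186 and 11342 against 7200 and 8428 in endothelium-like cells, the highest of those populations. The counts do not separate BALB/c from B6 cells, and the part of strain in this ranking was not tested. Cdh1, which encodes E-cadherin, a ligand of KLRG1, was highest in collecting duct-like cells, at 299 and 302 against 311 and 323. Among the ligands of NKG2D, Ulbp1 was at 22.8 and 19.8 CPM against 5.55 and 0.71 in endothelium-like cells, from 34 UMIs in all, and at 3.80 to 8.44 in macrophage/monocyte-like cells.

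The summed members were most like Ccl5 in pattern, with a Pearson r of 0.94 of log2(CPM + 1) over 53 profiles of 14 cell populations in the 4 grafts. Cd7, Il12rb2, Lta4h, and Runx3 followed, at 0.91, 0.85, 0.85, and 0.85. The profiles share libraries and the NK-like class, and no test was made. Of the 17 other Klr genes, Klra4, Klrc2, and Klra9 were the highest in NK-like cells, with means of 953, 446, and 381 CPM over the 4 grafts, and Klrg2 had no UMI there.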

How the data were processed

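Cells of 6 mouse kidneys were measured by droplet RNA-seq. The authors aligned reads to mm10 with Cell Ranger (version 3.0.1 in the headers of the transplanted kidneys) and deposited raw UMI counts per gene and barcode, without normalization. Coordinates are those of GRCm38. Barcodes under 500 UMIs or 250 genes, or over 50% in mitochondrial UMIs, were dropped, doublets called by Scrublet in scanpy 1.11.5 (0.8% per 1000 barcodes) were removed, and cells were clustered with leidenalg 0.10.2 (2500 variable genes, 40 principal components, 20 neighbors, resolution 1.5). A cluster was named when at least 3 markers were each in 10% of its cells and at 2 times the mean over clusters, and when it led the next name by 1.5 times. This gave 32 named clusters. Counts were summed per kidney and class.

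Rejecting and tolerized kidneys were compared with edgeR 4.0.16 (filterByExpr, TMM, quasi-likelihood test) in R 4.3.3, with DESeq2 1.42.0 as an alternative, and single values with exact two-sided permutation tests in scipy 1.17.1. Cells were thinned to 1000 UMIs to compare shares. The scripts were tested on simulated data. The 10 members, the lists, and the gates were chosen with earlier results of these data known. Named genes are the members, called genes of the lists or their range, the 5 genes most like the summed members, and the 3 other Klr genes highest in NK-like cells, and other genes named were chosen after their values were seen. Alternatives were another tool, other size factors, no filter, a replicate block, other cell filters, clusters and gates, and leaving out each kidney. Columns of other series numbered 0.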

Additional observations from a re-analysis of the deposited data

Results flagged for a closer look

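Of the members, 3 were flagged because the difference between tolerized and rejecting kidneys differed between NK-like cells and Nkg7-positive CD8 cells in edgeR's interaction test (n = 2 kidneys per group). Over all 9310 genes tested, 11 (0.118%) were called. The NK-like minus CD8 differences of the log2 fold changes were -1.90 for Klrb1c, -1.47 for Klre1, and -2.58 for Klri2. DESeq2 called Klri2 but not Klre1 or Klrb1c. The level of Klri2 was higher in 2 of 2 tolerized than in both rejecting kidneys in CD8 cells and overlapped in NK-like cells. For Klrb1c the difference rested on tolerized kidney 1. Depth, at median UMIs of 2564 and 3046 against 5011 and 5967 in the CD8 cells, moved with the group, and its part in the summed levels was not tested. The shares of CD8 cells with a Klre1 UMI at 1000 UMIs a cell did not overlap between the groups, but they are another measure and do not test the interaction. Groups of 2 kidneys are too small for a check of single outlying kidneys.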

How the results depend on the processing

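In NK-like cells, 1 gene was called, and 0 with doublets kept, 4 at 1000 UMIs or more, 2 with the gate of clusters alone, 2 by DESeq2, 40 without a filter, 0 with the replicate block, and 14 to 186 when a kidney was left out. In Nkg7-positive CD8 cells, 0 were called, and 43 by DESeq2, 305 without a filter, 18 with the replicate block, and 90 to 249 when a kidney was left out. In Nkg7-negative CD8 cells, 3 were called, and 1 at 1000 UMIs or more, 1 without asking for Cd3e, 5 without the low-UMI cluster, 5 without a filter, 0 with the block, and 1 to 28 when a kidney was left out. In CD4 cells, 10 were called, and 37 with doublets kept, 0 at 1000 UMIs or more, 4 at most 20% mitochondrial UMIs, 19 by DESeq2, 132 without a filter, 32 with the block, and 36 to 238 when a kidney was left out. The interaction called 11, and 17 with the gate of clusters alone, 2 by DESeq2, and 7 to 21 when a kidney was left out. When a kidney is left out, a lone kidney is assumed to vary like the other group.

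The study names 2 experiments, but no source used here says which number belongs to which, so the numbers were not taken as pairs, and deviations of same-numbered kidneys correlated at -0.004 in NK-like, -0.10 in Nkg7-positive CD8, -0.02 in Nkg7-negative CD8, and -0.03 in CD4 cells. The block called Klri2 in CD8 cells (log2 fold change 2.77) and no other member, and the interaction already held the kidney as a term. With the numbers crossed, added after the data were seen, 21, 84, 3, and 98 genes were called in these classes.

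The tolerized minus rejecting difference in members per NK-like cell, 0.064, was -0.127 at most 20% mitochondrial UMIs, -0.171 at 1500 UMIs a cell, -0.026 with clusters alone, and -0.044 to 0.173 when a kidney was left out. For single members, 410 alternative values kept the direction and the side of the threshold, 24 reversed, 20 newly passed the FDR, and 5 no longer did. In CD8 cells, Klre1 passed the FDR in 7 alternatives and Klri2 in 8, with no change of sign in any. Reversed log2 fold changes concerned members not called. In CD8 cells Klrg1 was -0.035 and Klra8 -0.012 with the block, and Klra7 was 0.06 with doublets kept and 0.00037 with the block. Leaving out a kidney gave -0.060 to 0.61 for Klrg1, -0.57 to 0.56 for Klra7, and -3.58 to 1.67 for Klra8 there, -0.21 to 0.55 for Klri2 in NK-like cells, and in CD4 cells -0.97 to 0.51 for Klrd1, -1.20 to 2.00 for Klrg1, and -2.93 to 0.91 for Klrk1. In the interaction, Klrg1 was -0.22 with doublets kept and -0.0019 at a resolution of 0.8, and Klra8 0.32 by DESeq2. Leaving out a kidney gave -0.092 to 0.35 for Klrc1, -0.35 to 0.041 for Klrd1, -0.33 to 1.63 for Klrg1, -0.30 to 0.074 for Klrk1, -2.08 to 3.22 for Klra8, and -0.43 to 1.36 for Ncr1. The causes were not tested. NK-like cells had median UMIs of 1462 and 2099 in the rejecting and 3367.5 and 4161.5 in the tolerized kidneys, and the part of depth in the counts of calls was not tested.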
